A study of Mus musculus with 2 samples.

Results

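The regions described here are 10 kb stretches of the mouse genome that carry no called peak of 5-hydroxymethylcytosine (5hmC) and yet were recovered more often by a 5hmC antibody than the genome-wide mean. They were found by cutting chromosomes 1 to 19 into fixed 10 kb bins and keeping the bins that overlapped no peak by even 1 bp, held 20 or more input fragment midpoints and had a ratio of 1.5 or more. The ratio is the share of all hMeDIP fragments that fall in a bin, divided by the share of all input fragments there, so that 1 is the mean of these libraries. Of 247240 bins, 190912 were free of peaks and 153567 of those held enough input. Among these, 5959 bins (59.6 Mb, 2.41% of all autosomal bins) met the rule and are called high-ratio bins below. The other 147608 peak-free bins with enough input are the comparison throughout. Peak-free bins with fewer than 20 input midpoints, 37345 in number, were not classed.

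5hmC is made when TET enzymes oxidise 5-methylcytosine. In mouse tissues it is known to mark the bodies of active genes and distal regulatory elements, over gene bodies often as broad low signal, and kidney is among the organs that carry it. Peak callers look for local summits, so a low plateau can stay outside a peak list.

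The groups were 1 hMeDIP library, made with an antibody against 5hmC (hydroxymethylated DNA immunoprecipitation), and 1 input library made without antibody. Both were made from genomic DNA of whole kidneys of male C57BL/6 mice, an inbred laboratory strain, aged 6 weeks, with no treatment named. The number of animals is not given, and whole kidney mixes all cell types of the organ. The libraries held 11424027 hMeDIP and 8316507 input fragments. The authors' list held 92654 peaks, 92319 of them on the autosomes. Neither group was replicated, so no spread between replicates and no test of antibody against input exist, and each value describes these libraries. The 95% intervals below are exact conditional binomial intervals. They cover counting error only and treat reads as independent molecules, which cannot be checked without molecular identifiers.

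The label of these bins as diffuse and high was checked first. Their pooled ratio was 1.74 (1.73 to 1.75), from 480816 hMeDIP and 201136 input midpoints, against 0.590 (0.589 to 0.591) in the other peak-free bins. Bins that hold a peak stood at 2.14 (2.140 to 2.147). The rule used this ratio, so these values describe the choice and are no finding. The single ratios reached from the threshold up to 3.09, with a median of 1.69 and quartiles of 1.58 and 1.85. Of all peak-free bins with enough input, 3.88% passed the threshold, against 73.3% of the bins with a peak and 22.3% of all bins with enough input. The count rests on the scaling: relative to the fragments outside peaks, 19004 peak-free bins (12.4%) reached 1.5, and 36.2% of those lay in runs of adjacent bins.

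A single bin rested on few fragments. A high-ratio bin held a median of 80 hMeDIP and 34 input midpoints, against 26 and 37 in the other peak-free bins. The lower input belongs to the rule, in which input is the denominator. The interval lay above 1 in 5299 high-ratio bins (88.9%) and reached down to 1 or below in 660, while 3.67% of all peak-free bins had an interval above 1. It lay above 1.5 itself in 204 bins, or 3.42% of the high-ratio bins and 0.133% of all peak-free bins with enough input. A ratio of 2 or more was reached by 819 bins (13.7%), which is 0.533% of the peak-free bins. The 3 bins just inside the threshold stood at 1.5001, and the 3 just outside at 1.4988 to 1.4996. From 1.5 to 1.6 there were 1761 high-ratio bins, and from 1.4 to 1.5 there were 2366 other peak-free bins, so many bins lay close to the threshold on either side.

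Fragments of 1 strand gave a ratio that the choice on the other strand had not counted. Peak-free status and distance came from the same peak list throughout, called on hMeDIP signal and not limited here to 1 strand. The reading is thus not independent of the whole rule. High-ratio bins were chosen again on plus-strand fragments alone, with at least 10 input midpoints, and were then read on minus-strand fragments of the same libraries. The 8524 bins so chosen had a pooled ratio of 1.83 on the plus strand and of 1.22 (1.21 to 1.23) on the minus strand. The other peak-free bins, 143383 in number, had 0.563 on the plus strand and 0.599 (0.598 to 0.601) on the minus strand. The high-ratio bins were thus above the other bins on fragments that the choosing ratio had not counted, but by much less than on those it had. On the minus strand 2331 of the 8351 plus-strand choices with enough input there reached 1.5 again (27.9%), and 5952 of the 135596 other bins did (4.39%). Over both sets together the share was 5.75%. A ratio above 1 was kept by 67.2% of the plus-strand choices, and 16.6% of the other bins had one. The choice in the other direction, on the minus strand, gave 1.21 (1.20 to 1.22) on the plus strand for 8435 bins. Of 8283 with enough input there, 2331 also reached 1.5 on the plus strand (28.1%), where 5.8% of all peak-free bins tested on both strands did. Bins at 1.5 or more on both strands are the same bins in either direction, so these 2331 are not a second count. A single strand holds fewer fragments than both together, so these values are not those of the 5959 bins.

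How much of the ratio was kept differed with the distance to the nearest peak, which came from that same peak list. Plus-strand choices under 1 kb from a peak stood at 1.37 (1.35 to 1.39) on the minus strand, against 1.04 (1.03 to 1.05) for other bins at that distance. At 5 to 20 kb the values were 1.19 (1.18 to 1.20) and 0.836 (0.833 to 0.839). At 50 kb or more the 525 chosen bins had 0.938 (0.915 to 0.963), below the mean of the library, against 0.413 (0.412 to 0.414) in the other bins. In that farthest class 12.2% of the chosen bins reached 1.5 again, against 0.645% of the others.

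**Figure D1:**
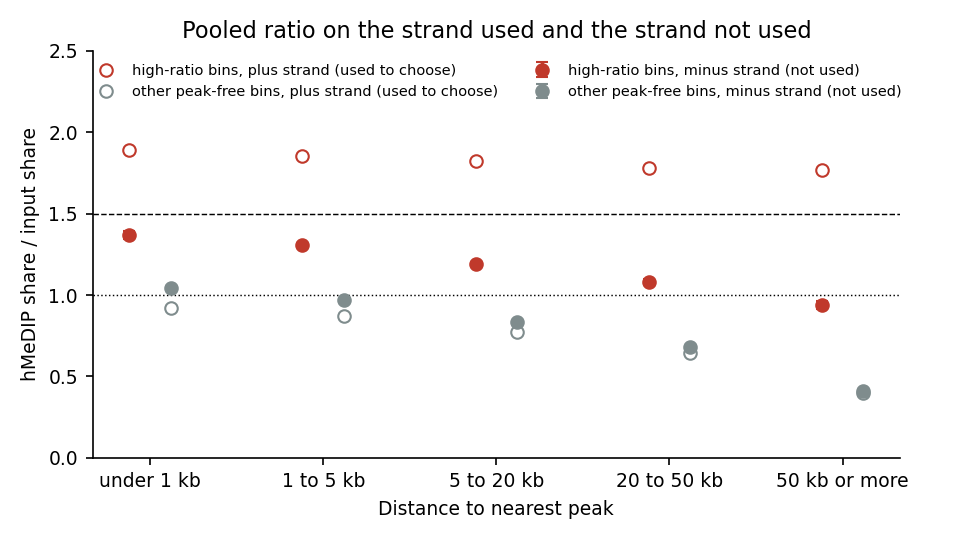
Pooled ratio of hMeDIP share over input share (y axis) by distance to the nearest peak (x axis), for peak-free bins chosen on plus-strand fragments (red) and other peak-free bins (grey). Open circles are the plus strand, filled circles the minus strand with 95% counting intervals, the dashed line is the threshold of 1.5 and the dotted line the library mean of 1. The red filled circles go from 1.37 under 1 kb to 0.938 at 50 kb or more and stay above the grey ones in each class.

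High-ratio bins lay close to peaks. The peaks were called on hMeDIP signal, so distance to a peak is not independent of the ratio. The median distance from bin edge to peak edge was 4.59 kb, with quartiles of 1.72 and 11.3 kb, against 64.7 kb with quartiles of 15.3 and 290 kb for the other peak-free bins. A peak lay within 10 kb of 4276 high-ratio bins (71.8%), against 27792 of the others (18.8%). Both neighbouring bins held a peak for 1715 high-ratio bins (28.8%), against 5146 of the others (3.49%). Beyond 100 kb from any peak there were 49 high-ratio bins (0.822%), against 62562 of the others (42.4%).

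The share of peak-free bins that met the rule fell step by step with distance, in every class used. It was 19.8% at under 1 kb (952 of 4816 bins), 13.7% at 2 to 5 kb, 9.17% at 5 to 10 kb and 2.38% at 20 to 50 kb. At 50 kb or more it was 0.231%, with 187 of 80844 bins. These shares depend on the scaling and the threshold: relative to the fragments outside peaks they were 48.03% under 1 kb and 1.57% at 50 kb or more, and at a threshold of 2 they were 3.47% and 0.0235%. In the main setting the share under 1 kb was above the 3.88% of all peak-free bins, and the share at 50 kb or more below it. Over all peak-free bins the share was 12.4% relative to the fragments outside peaks and 0.533% at a threshold of 2. Even next to a peak, most peak-free bins did not meet the rule, and all bins under 1 kb pooled to a ratio of 1.12 (1.11 to 1.13). The median ratio within the high-ratio set was 1.72 under 1 kb and 1.66 at 50 kb or more.

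**Figure D2:**
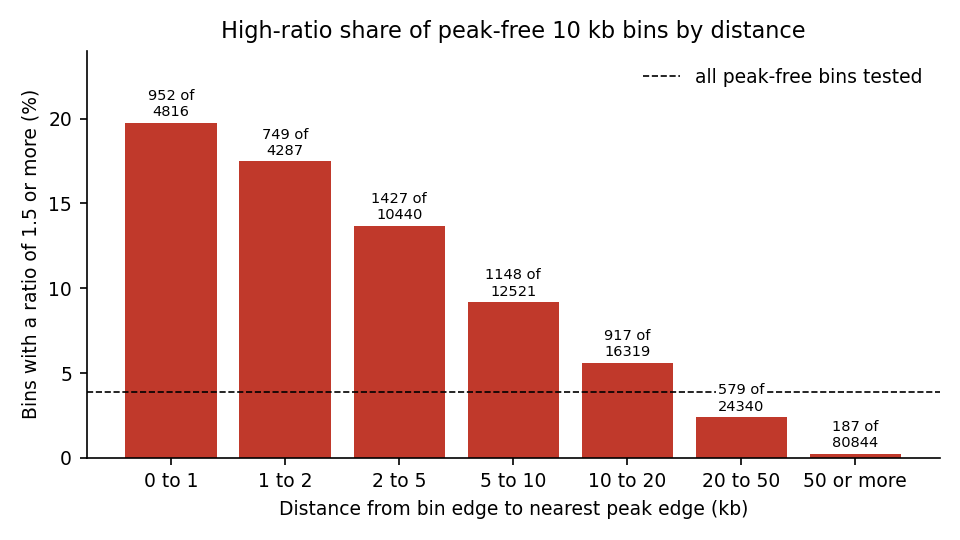
Share of peak-free 10 kb bins with a ratio of 1.5 or more (y axis, percent) by distance from bin edge to nearest peak edge (x axis, kb), with the number of bins above each bar and the share over all peak-free bins (3.88%) as a dashed line. The bars fall from 19.8% to 0.231%.

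The gaps between the flanking peaks were short. High-ratio bins sat in gaps with a median length of 36.4 kb, against 356 kb for the other peak-free bins. Gaps shorter than 50 kb held 3871 high-ratio bins (65.0%), against 18858 of the others (12.9%). In gaps of 10 to 20 kb, which have room for at most 1 whole bin, 28.2% of the peak-free bins met the rule (1220 of 4320). In gaps over 1 Mb, 30 bins of 47129 did (0.0637%), and the pooled ratio of all bins there was 0.334 (0.333 to 0.335).

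The wider surroundings were raised as well. Over the 50 kb on each side, without the bin itself and without fragments in peaks, the median ratio was 1.20 (quartiles 1.03 and 1.36) around high-ratio bins and 0.550 (0.338 and 0.860) around the others. Surroundings above 1 were found for 78.4% of the high-ratio bins, against 15.8% of the others. Surroundings that themselves reached 1.5 were less frequent, at 691 high-ratio bins (11.6%) and 1128 of the others (0.765%). Only 16 high-ratio bins lay in surroundings below 0.5, of 66597 peak-free bins there. Distance and surroundings both went with the share. In surroundings of 1.2 to 1.5 the rule was met by 26.2% of the bins under 5 kb from a peak, 17.2% of those at 5 to 20 kb and 12.1% of those farther away. In surroundings of 0.5 to 0.8 these shares were 2.51%, 1.09% and 0.558%.

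The ratio changed in a step at the borders of the chosen bins, inside which the rule had set it. It was 1.74 inside and 1.22 (1.21 to 1.23) over the first 5 kb on either side, with fragments in peaks left out, and then 1.19 (1.190 to 1.199) at 5 to 15 kb and 1.18 (1.18 to 1.18) at 15 to 25 kb. The other peak-free bins went the opposite way by a small amount, with 0.590 inside and 0.617 (0.616 to 0.618) over the first 5 kb. The 766 high-ratio bins that lay 20 kb or more from a peak stood at 1.70 (1.68 to 1.73) inside and 0.985 (0.970 to 0.9998) over the first 5 kb, against 0.471 and 0.486 for the others at that distance. The borders are those of the fixed grid and not of the DNA, and the rule used the fragments inside the bin but not those beside it. A step at the border, up or down, is therefore part of the choice and no finding on where signal ends.

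**Figure D3:**
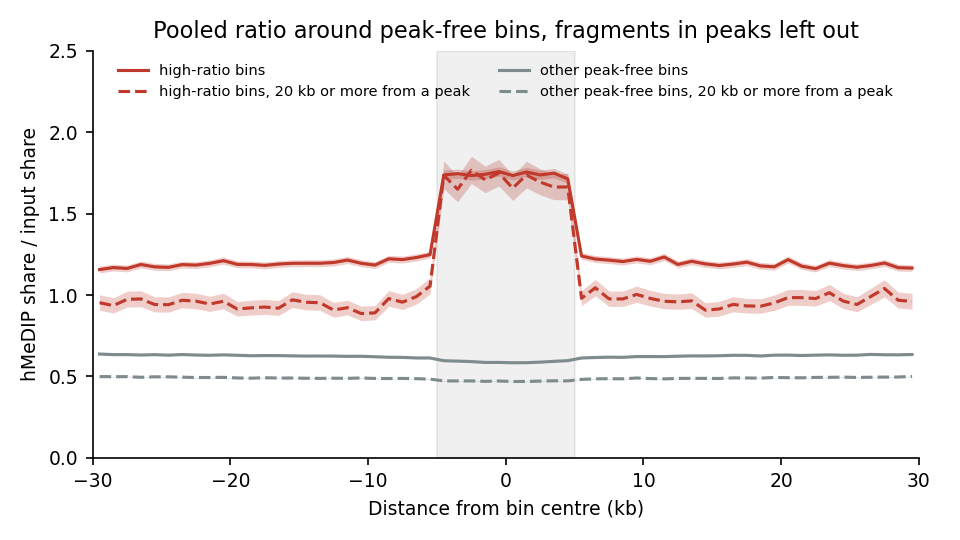
Pooled ratio of hMeDIP share over input share (y axis) in 1 kb steps up to 30 kb from the bin centre (x axis), with fragments in peaks left out, for high-ratio bins (red) and other peak-free bins (grey), and for those 20 kb or more from a peak (dashed). Bands are 95% counting intervals and the shaded area is the bin, whose fragments the rule used. The red line stands at 1.74 there, against 1.22 just outside it.

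Inside the bins the hMeDIP midpoints were less bunched than in bins with a peak, and not evenly spread. Evenness was measured as the index of dispersion, the variance over the mean of the counts in the 10 windows of 1 kb in a bin, which is 1 on average for randomly placed midpoints. Its median in high-ratio bins was 2.60 for hMeDIP (quartiles 1.86 and 3.51), and 1.12 for input in the same bins. The index grows with the count where placement is uneven, so bins were compared at like numbers of hMeDIP midpoints. At 60 to 79 midpoints the hMeDIP median was 2.61 in 2341 high-ratio bins, 2.65 in 11260 other peak-free bins and 4.50 in 10231 bins with a peak. At 80 to 99 midpoints it was 2.56, 2.79 and 4.45. At 40 to 59 midpoints the order of the peak-free bins turned, with 2.81 in high-ratio bins, 2.42 in the others and 4.73 in bins with a peak. The quartiles of the high-ratio bins and of the other peak-free bins overlapped in every class. An index of 1 or less was found in 256 high-ratio bins (4.30%), 14.7% of the other peak-free bins and 0.446% of bins with a peak, at unmatched counts. At 40 to 59 midpoints it was found in 3.48% of high-ratio bins and 5.55% of the other peak-free bins. At 80 to 99 midpoints the shares were 4.19% and 2.83%. The input of the high-ratio bins had such an index in 40.9%, at fewer midpoints a bin. Bins were sorted into peak-free and peak-holding by a caller that looks for such bunching, so the contrast with bins that hold a peak is not independent of the rule. The bins are therefore named here by their ratio and not as evenly spread 5hmC.

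**Figure D4:**
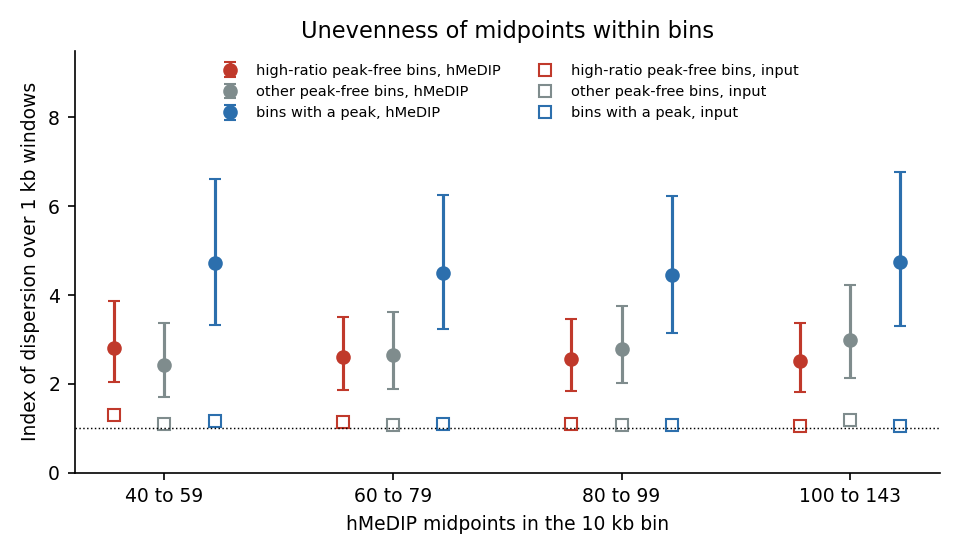
Index of dispersion of midpoints over the 1 kb windows of a bin (y axis) by number of hMeDIP midpoints in the bin (x axis), for high-ratio peak-free bins (red), other peak-free bins (grey) and bins with a peak (blue). Filled circles are hMeDIP medians with quartiles, open squares input medians, and the dotted line at 1 is random placement. The red circles lie between 2.53 and 2.81, beside the grey ones and below the blue ones.

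The fullest 1 kb window of a bin held a median of 19.6% of its hMeDIP midpoints in high-ratio bins, and the input's own fullest window held a median of 20% of its input midpoints there, at fewer midpoints a bin. At 60 to 79 hMeDIP midpoints at least 1 window without any was present in 25.8% of the high-ratio bins and in 22.9% of the other peak-free bins, and at 80 to 99 in 11.1% and 10.8%.

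The summit of a bin was taken as its highest pileup, the largest number of deposited 350 bp stretches over any base. It had a median of 11 hMeDIP stretches in high-ratio bins, with quartiles of 9 and 13. Summit height follows the number of hMeDIP midpoints, which the rule selected on, so it was set against other bins at like counts. At 60 to 79 midpoints the median was 10 in high-ratio bins, 10 in the other peak-free bins and 14 in bins with a peak. At 80 to 99 midpoints it was 12, 12 and 15, and in the highest class compared, which starts at 100 midpoints, it was 13, 14 and 18. High-ratio bins thus had summits like those of other peak-free bins with as many fragments. The 9240 autosomal peaks with the lowest scores in the authors' list, 54.7 or less, had a median summit of 12. That height was reached in 2395 high-ratio bins (40.2%) and in 5.53% of the other peak-free bins. These shares are at unmatched midpoint counts. The bins are wider than these peaks, which had a median width of 849 bp, and so have more places for a summit.

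Signal leaned slightly towards the nearer peak in bins under 2 kb from a peak. In high-ratio bins under 2 kb from a peak the 1 kb window on the near side had a ratio of 1.87 and the one on the far side 1.70. In other peak-free bins at that distance the values were 1.10 and 0.91. At 2 to 10 kb the near and far windows of high-ratio bins were at 1.72 and 1.69, and at 10 kb or more at 1.70 and 1.67. Windows between them reached 1.78 in each of these classes, so no steady lean was seen there. The median index of dispersion in high-ratio bins was 2.47 under 1 kb from a peak and 2.86 at 50 kb or more. The values in the other bins were 2.46 and 1.62, where the median hMeDIP count was 52 under 1 kb and 17 at 50 kb or more.

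High-ratio bins were mostly single. They formed 5500 runs of adjacent bins, of which 5078 were 1 bin long and held 85.2% of the set. The remaining 881 bins (14.8%) lay in 389 runs of 20 kb, 29 of 30 kb and 4 of 40 kb, the longest. Among the peak-free neighbours with enough input, 16.1% were themselves high-ratio bins (918 of 5696), against 2.04% of such neighbours of the other peak-free bins. A bin with a peak ended 54.5% of the run ends, another peak-free bin 43.4% and a bin with too little input 2.10%. Over the 4778 run ends formed by another peak-free bin, the ratio of that bin had a median of 1.004 and quartiles of 0.793 and 1.21. A bin between 2 runs counts for each of them.

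Seen together with bins that hold a peak, the high-ratio bins were often part of longer raised stretches. Of the 5959, 3700 (62.1%) lay in an unbroken stretch of bins at 1.5 or more that included a bin with a peak. A bin with a peak lay directly beside 71.8% of the high-ratio bins, and 73.3% of all bins with a peak reached 1.5. The share is therefore not separate from nearness to peaks, and whether it exceeds what that gives was not tested. Stretches of 50 kb or more took in 1837 (30.8%), and the longest spanned 630 kb. In 2012 bins (33.8%) neither neighbour reached 1.5 with enough input, and 247 lay in raised stretches without any peak.

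The 5 longest runs lay on different chromosomes. On chromosome 2, 170040001 to 170080000, the 4 bins had ratios of 1.68, 2.18, 2.41 and 1.75, from 90, 99, 96 and 77 hMeDIP and 39, 33, 29 and 32 input midpoints. Pooled they gave 1.98 (1.62 to 2.44), between bins with a peak on both sides at 3.64 on the left and 1.67 on the right. This run filled most of a 50.02 kb gap between peaks.

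On chromosome 10, 110490001 to 110530000, the 4 bins had ratios of 1.91, 1.63, 1.68 and 1.68 and a pooled ratio of 1.73 (1.42 to 2.12). A peak lay 3.50 kb to the right and 37.3 kb to the left. On chromosome 9, 40540001 to 40580000, they had 1.57, 1.60, 1.65 and 1.82, pooled 1.66 (1.37 to 2.02), with a peak 2.02 kb to the right. A bin at 1.19 separated this run from 2 more high-ratio bins on its left.

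On chromosome 4, 150760001 to 150800000, the bins had 1.66, 1.55, 1.72 and 1.52, pooled 1.61 (1.35 to 1.93). Of the 5 it was the run farthest from peaks, with 22.8 kb on the left and 23.0 kb on the right, and it ended on both sides in peak-free bins, at 0.936 and 1.18. The fifth, on chromosome 5, 112880001 to 112910000, was the 30 kb run with the highest pooled ratio, at 2.07 (1.62 to 2.67). Its bins had 2.13, 2.34 and 1.84 and it ended 1.11 kb from a peak on the right. The runs were chosen on these same fragments, so their ratios and intervals describe the choice.

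**Figure D5:**
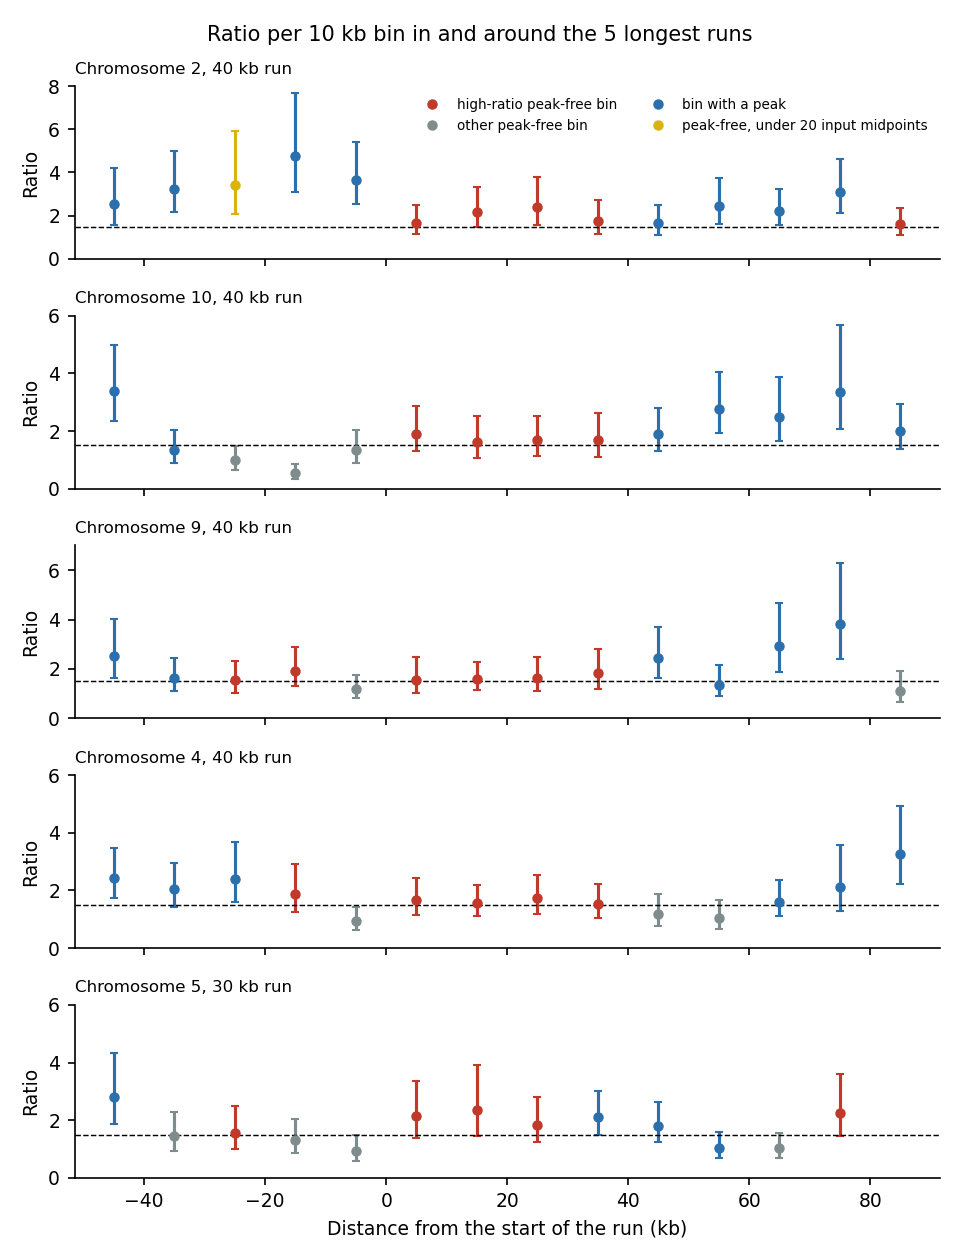
Ratio of each 10 kb bin with its 95% counting interval (y axis) by distance from the start of the run (x axis, kb) for the 5 longest runs of high-ratio bins and 50 kb on either side. Red points are high-ratio peak-free bins, grey other peak-free bins, blue bins with a peak, yellow a peak-free bin with under 20 input midpoints, and the dashed line is 1.5. The run on chromosome 2 has raised bins on both sides, and the run on chromosome 4 has a bin at 0.936 before it and one at 1.18 after it.

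The bins with the highest lower bound of the ratio had raised counts over most of their length. The first, chromosome 18, 80390001 to 80400000, held 106 hMeDIP and 25 input midpoints, a ratio of 3.09 (1.98 to 4.98). From left to right its 1 kb windows held 12, 8, 6, 11, 14, 11, 11, 10, 16 and 7 hMeDIP midpoints, an index of dispersion of 0.885. No window was empty and none stood apart. It lay in a 12.7 kb gap between peaks, 218 bp from the left one and 2480 bp from the right one.

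The second, chromosome 15, 36650001 to 36660000, had a ratio of 3.01 (1.87 to 5.04) in a 12.3 kb gap, with windows of 9, 13, 11, 10, 14, 7, 11, 3, 5 and 8 hMeDIP midpoints. The third, chromosome 7, 53380001 to 53390000, had a ratio of 2.86 (1.84 to 4.58) although the nearest peak was 19.4 kb away. Its windows held 9, 5, 14, 9, 10, 14, 15, 11, 6 and 9 hMeDIP midpoints. The fourth, chromosome 9, 68520001 to 68530000, stood at 2.83 (1.84 to 4.50) with an index of 1.83. The fifth, chromosome 10, 44800001 to 44810000, had the most fragments of these bins, 138 hMeDIP and 38 input midpoints, and a ratio of 2.64 (1.83 to 3.89). In these 5 bins the index of dispersion ran from 0.885 to 1.83, below the median of 2.60 of all high-ratio bins. They were picked for their ratio among bins without a peak, and the peak caller looks for such bunching. Their low index is therefore not independent of the choice. Their ratios and intervals describe the choice as well.

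The bins farthest from any peak had ratios of 1.55 to 1.71. Chromosome 2, 23420001 to 23430000, was 535 kb from the nearest peak, with 71 hMeDIP and 33 input midpoints and a ratio of 1.57 (1.02 to 2.44). Its windows held 8, 4, 7, 3, 13, 4, 15, 9, 6 and 2 hMeDIP midpoints, so that 2 of the 10 windows took 28 of the 71. Next came chromosome 1, 76440001 to 76450000, at 373 kb with 1.55 (0.927 to 2.67), and chromosome 11, 24640001 to 24650000, at 368 kb with 1.61 (0.975 to 2.72). In the chromosome 11 bin 15 of 53 hMeDIP midpoints fell in a single 1 kb window. Chromosome 14, 86720001 to 86730000, at 305 kb had 1.71 (1.11 to 2.67), and chromosome 10, 78550001 to 78560000, at 298 kb had 1.57 (1.06 to 2.34). The interval of 2 of these 5 bins included 1. The 5 come from the 187 high-ratio bins among 80844 peak-free bins at 50 kb or more from a peak. They were chosen on these same fragments, so their ratios and intervals describe the choice. Bins chosen on the plus strand at that distance stood at 0.938 (0.915 to 0.963) on the minus strand.

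Every autosome carried high-ratio bins. Their share of the peak-free bins ran from 2.59% on chromosome 3 (280 of 10828) to 6.00% on chromosome 11 (431 of 7178), a median of 3.81%, and the SD over 19 chromosomes was 0.891 percentage points. Chromosome 17 (5.25%), chromosome 5 (4.98%) and chromosome 9 (4.75%) followed at the upper end, and chromosome 14 (2.94%) and chromosome 16 (3.04%) at the lower end. Across the 19 chromosomes, which share both libraries and the peak list, the share went with the percentage of bins that held a peak (Pearson's r 0.93, Spearman's rho 0.95). Within chromosomes the last 5 Mb before the highest covered coordinate had 5.73% (304 of 5305 bins), against 3.84% in between and 3.21% in the first 5 Mb of covered sequence. In steps of 1 Mb, 907 of 2394 blocks with a peak-free bin tested (37.9%) held no high-ratio bin, 749 held 1 to 3, and 738 held 4 or more with a maximum of 14.

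The strands were balanced, with 50.1% (49.96 to 50.25) of hMeDIP and 50.1% (49.8 to 50.3) of input fragments of high-ratio bins on the plus strand. No gene, base composition or sequence is given for these bins, because the reference tables at hand are on the build GRCm38 and the positions here on mm9.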

How the data were processed

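Genomic DNA of mouse kidney was profiled in 1 hMeDIP and 1 input library. CASAVA, Bowtie 1.0.0 and build mm9 are named in the submitters' processing notes, with no settings or filters given in the sources used here. The authors deposited, per library, lines with a position, a strand and a whole-number count, read here from the values as fragments of 350 bp and the reads that share them (11634110 hMeDIP and 8368122 input reads). Lines of another length numbered 18 and 163. The authors' deposited peak list carries a score per peak and names MACS, per the file headers. Its control, its threshold and whether it rests on this library alone are not given. The score was used only to rank peaks within that list.

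Fragments were assigned by midpoint with Python 3.11.15, numpy 2.4.6, scipy 1.17.1 and pandas 2.3.3. No test between libraries was possible with 1 library a group. Intervals are exact conditional binomial (Clopper-Pearson), with shares of 1 library Clopper-Pearson. Functions were checked on simulated counts. Named bins are the 5 with the highest lower bound, the 5 farthest from a peak and the 5 longest runs, with ties by pooled ratio. Alternatives changed the scaling, threshold, input minimum, bin size and start, read weighting, fragment length, distance to peaks and strand. The bins, rule and comparisons were chosen with earlier results of these data known. Coordinates are 1-based on mm9, with the highest coordinate of each chromosome as its end.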

Additional observations from a re-analysis of the deposited data

Results flagged for a closer look

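The number of reads per position was not used in the comparisons above, and is listed because it was higher in hMeDIP than in input. Positions shared by at least 2 reads made up 1.15% (1.12 to 1.18) of hMeDIP positions in high-ratio bins, and 0.265% (0.243 to 0.289) of the input there. In the other peak-free bins these shares were 0.987% and 0.361%, and in bins with a peak 1.61% and 0.282%. Weighting by reads moved the number of high-ratio bins to 5876. The part of repeated reads in single bins was not tested.

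Chromosome X lies outside the rule, and is listed because peak-free bins with a high ratio were present there too. With the same limits 75 of 3507 peak-free bins (2.14%) met the rule, against 3.88% on the autosomes, and 47 of these had an interval above 1. Few X bins hold enough input, since 16367 were free of peaks in all. With at least 10 input midpoints the share was 3.69% on chromosome X (396 of 10741) and 3.8% on the autosomes. These shares are at unlike depth. Under the main limits high-ratio bins held a median of 22 input midpoints on chromosome X and 34 on the autosomes. Whether the libraries differ between X and autosomes in these bins was not tested.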

How the results depend on the processing

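No paired analysis was possible because each group has 1 library. The choice of the minus strand was added after seeing the data. The number of high-ratio bins was 5959. It became 19004 when scaled to fragments outside peaks, 819 with a ratio threshold of 2, 13588 with the lower threshold tried, 717 with 20 kb bins and 26904 with 5 kb bins. It stayed within 1.5 times of 5959 under the other 8 alternatives. The median distance to the nearest peak was 4.59 kb. It became 6.64 kb when scaled outside peaks, 3.48 kb with a threshold of 2, 5.99 kb with the lower one, 4.01 kb with at least 30 input midpoints, 4.40 kb with 20 kb bins, 4.85 kb with 5 kb bins, 4.31 kb with intervals above 1, 6.12 kb at 1 kb or more from a peak, and 6.12 and 6.07 kb when chosen on the plus and the minus strand. The median of the other peak-free bins lay between 53.9 and 83.9 kb throughout. The share of peak-free bins that met the rule was 19.8% under 1 kb from a peak and 0.231% at 50 kb or more. These became 48.03% and 1.57% when scaled outside peaks, 3.47% and 0.0235% with a threshold of 2, 37.3% and 0.894% with the lower one, 7.70% and 0.0530% with 20 kb bins, and 32.8% and 0.905% with 5 kb bins, and the share at 50 kb or more became 0.657% and 0.684% when chosen on the plus and the minus strand. The share of high-ratio bins in runs of 2 or more was 14.8%. It became 36.2% when scaled outside peaks, 4.40% with a threshold of 2, 28.9% with the lower one, 12.6% with at least 30 input midpoints, 4.32% with 20 kb bins, 28.4% with 5 kb bins, and 17.7% and 17.7% when chosen on the plus and the minus strand. The longest run ranged from 20 to 80 kb. The median index of dispersion was 2.60. It became 2.39 with a threshold of 2, 2.86 with 20 kb bins, 2.34 with 5 kb bins, 2.56 with bins shifted by 5 kb, 2.68 when weighted by reads, 2.68 with 150 bp fragments, and 1.87 and 1.89 on the minus and the plus strand, where each bin holds fewer midpoints. It was above that of the other peak-free bins in each case, at unmatched counts. For the 15 named bins and runs 3 alternatives gave 45 values, of which 40 lay in the main interval, and the 5 outside it were the runs when scaled outside peaks. No ratio among them fell below 1. The regions were chosen for ratios of 1.5 or more and the alternatives recount the same fragments, so this outcome was largely fixed by the choice. The cause of these shifts was not tested. At about 34 input midpoints a bin, depth limits every single ratio.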
